A study of Mus musculus with 8 samples.

Results

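Control H3K79me2 peaks that lay over noncoding genes and touched no protein-coding gene were described in cultured mouse spermatogonial stem cells, with the EPZ5676 peaks found over them. A peak belonged to the set when it was on chromosomes 1 to 19, was at least 500 bp wide, overlapped no protein-coding gene span of RefSeq GRCm38, and overlapped at least 1 gene span of another biotype. Of 35029 control peaks that met the width and chromosome limits, 1283 did so (3.66%), while 31754 overlapped a protein-coding gene and 1992 overlapped no gene. The complete control list had 47774 peaks. The set was chosen from the control list itself, so the width and fold enrichment of its peaks are description only, whereas the EPZ5676 list was not used to choose it.

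The series holds 8 samples in 4 groups of 2: EPZ5676 H3K79me2, control H3K79me2, EPZ5676 input and control input. The treated cultures grew for 7 days with 2 µM EPZ5676, and the control cultures grew for the same time with vehicle, which the protocols name as DMSO and the sample descriptions as ethanol. All groups share their origin in testes of mice of the strain B6.129S7-Gt(ROSA)26Sor/J, aged 7 days and carrying a LacZ reporter, and 2 months of culture on SNL 76/7 feeder cells with GDNF (10 ng/mL) and FGF2 (0.5 ng/mL). The feeder cells are a mouse fibroblast line, and the protocols name no step that removed them before fixation with 1% formaldehyde. A single peak list was used for each H3K79me2 group, recorded under replicate 1, so the conditions were compared without replicates and without a test. The read depth behind the lists is unknown here. The lowest −log10 p-value of a peak was 4.03 in the EPZ5676 list and 2.36 in the control list.

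H3K79me2 is laid down by DOT1L, the enzyme that EPZ5676 inhibits, and in mammalian cells it is typically found over the transcribed part of active genes, beginning just downstream of the start. Long noncoding RNAs (lncRNAs) are transcribed by RNA polymerase II and can carry the same mark. Several lncRNAs are the precursors, or hosts, of microRNAs and small nucleolar RNAs (snoRNAs), which are cut from the longer transcript. MicroRNAs pair with messenger RNAs mainly through the seed, bases 2 to 8 of the mature strand.

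The cell type label was set beside marker genes. All 13 markers of undifferentiated spermatogonia and all 7 other germ cell markers had a control peak, and none of these 20 had an EPZ5676 peak. Of 12 fibroblast markers, 2 had an EPZ5676 peak, Col5a1 and Prrx1, and 7 had a control peak, whereas Col1a2, Col3a1, Dcn, Lum and Postn had none. Of 10 markers of testis somatic cells, 0 had an EPZ5676 peak and 2 had a control peak. No share over all protein-coding genes is given beside these counts, so they are description only. In a mixed culture, fewer marked cells and less mark per cell cannot be told apart.

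MicroRNAs that lay in the strongest or widest small RNA peaks of the set, or in clusters of the germ cell list, are shown first, because some peaks held several members of a seed family. Of 33 microRNA genes marked, 32 had a mature sequence in RefSeq (GRCm38.p6). The capitals mark the seed. The first 3 share the seed of the let-7 family and sit in a single control peak, chr13:48534381-48545839.
let-7a-5p: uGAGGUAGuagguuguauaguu
let-7d-5p: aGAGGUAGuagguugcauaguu
let-7f-5p: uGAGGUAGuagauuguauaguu
The next 6 come from the miR-17 to miR-92a cluster, all inside the control peak chr14:115042348-115044546, where miR-17 and miR-20a share a seed and miR-19a and miR-19b share another.
miR-17-5p: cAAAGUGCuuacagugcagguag
miR-20a-5p: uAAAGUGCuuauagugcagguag
miR-18a-5p: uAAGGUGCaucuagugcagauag
miR-19a-3p: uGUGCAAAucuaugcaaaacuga
miR-19b-3p: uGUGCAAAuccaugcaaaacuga
miR-92a-3p: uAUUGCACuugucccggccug
The cluster of miR-182, miR-96 and miR-183 lay in the control peak chr6:30165498-30174441, and each of the 3 has its own seed.
miR-182-5p: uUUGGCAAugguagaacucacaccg
miR-96-5p: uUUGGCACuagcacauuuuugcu
miR-183-5p: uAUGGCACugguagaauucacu
The last 2, miR-193a and miR-365, lay in the control peak chr11:79711728-79727941, the only microRNA peak that an EPZ5676 peak overlapped.
miR-193a-3p: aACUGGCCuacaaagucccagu
miR-365-3p: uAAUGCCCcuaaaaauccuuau

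Most of the marked genes were lncRNA genes, and most carried a single peak of the set. The 1283 peaks covered 3.24 Mb and touched 868 genes, of which 694 were lncRNA genes, 69 pseudogenes, 33 microRNA genes, 28 transcribed pseudogenes, 22 snoRNA genes and 14 genes of the class misc_RNA. Another 8 belonged to small classes, among them 2 snRNA genes and 2 constant-region segments of immune receptors (Ighm and Trac), which are not noncoding RNAs although their biotype is not protein-coding. A single peak marked 628 genes, whereas 31 genes had 5 or more. ChIP signal has no strand, so a peak over overlapping genes cannot be assigned to either, and 103 peaks touched more than 1 gene. Predicted genes with a Gm number made up 487 of the 868 (56.1%) and Rik clones 207 (23.8%).

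The share of genes marked differed between biotypes. Among noncoding genes whose span touched no protein-coding gene, 3.54% were marked (640 of 18104). The share was 6.07% for lncRNA genes (480 of 7906), 9.46% for microRNA genes (33 of 349), 7.45% for transcribed pseudogenes (24 of 322) and 2.61% for snoRNA genes (22 of 842). It was 0.943% for pseudogenes without transcripts (65 of 6892) and 0.332% for snRNA genes (2 of 602). Of 358 tRNA genes and 55 rRNA genes outside coding spans, 0 were marked. Genes of different length offer different room for a peak, and clustered microRNAs and snoRNAs share peaks, so these shares describe spans and not transcription.

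The median width of the peaks was 1351 bp (quartiles 822.5 and 2592 bp), against 1913 bp for control peaks over protein-coding genes and 1074 bp for those outside every gene. Their median fold enrichment, the deposited ratio of signal to background, was 2.34, against 2.38 over protein-coding genes and 2.29 outside every gene. Peaks wider than 10 kb numbered 38. At the width limit, the narrowest peaks of the set lay over BC039771 (500 bp), Gm40987 (501 bp) and Gm4890 (503 bp). The widest peaks just under it lay over Gm19610 and Gm40232 (499 bp each) and over Gm39044 with LOC117997403 (498 bp). None of the 3 just under the limit was overlapped by an EPZ5676 peak.

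After EPZ5676, few of these peaks were still overlapped. Of 1283 peaks, 49 overlapped an EPZ5676 peak by at least 1 bp, or 3.82% (exact Clopper-Pearson 95% interval 2.84 to 5.02%). Over all 35029 control peaks of the same width and chromosomes the share was 8.27%. Of the bases in the set, 1.65% were covered by EPZ5676 peaks, against 1.78% of the bases of control peaks over protein-coding genes and 0.523% outside every gene. The 72 EPZ5676 peaks over the set had a median width of 571.5 bp, against 402 bp for all 9182 EPZ5676 peaks, and a median −log10 q of 1.59, against 1.43. The interval reflects only how many peaks were counted, and peaks of the same gene share their source.

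The share overlapped was compared within width classes, because a wide peak has more room for an overlap. For peaks of at least 500 and under 1000 bp it was 1.95% (9 of 461; interval 0.896 to 3.67%), against 2.47% over protein-coding genes (2.16 to 2.82%). From 1000 bp to under 2000 bp it was 2.35% (9 of 383; 1.08 to 4.41%), against 4.04% over protein-coding genes (3.60 to 4.52%). From 2000 bp to under 5000 bp it was 6.69% (21 of 314; 4.19 to 10.0%), against 5.55% over protein-coding genes (5.04 to 6.08%). These 3 pairs of intervals overlapped, but 16 of the 21 overlapped peaks in the last of these classes lay over Pvt1 or Morrbid, which are described next. At 5000 bp and over it was 8.00% (10 of 125; 3.90 to 14.2%), against 24.3% over protein-coding genes (23.3 to 25.2%), and these intervals did not overlap. Peaks of that class were also narrower in the set, with a median of 7923 bp against 10093.5 bp over protein-coding genes. The share of their bases under an EPZ5676 peak was 1.61% in the set, against 1.94% over protein-coding genes.

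Leaving out the peaks over Pvt1 and Morrbid, a choice made after the values were seen, lowered the share in every width class. It was then 1.34% in the narrowest class (6 of 449; 0.492 to 2.89%), 0.813% from 1000 bp to under 2000 bp (3 of 369; 0.168 to 2.36%), 1.71% from 2000 bp to under 5000 bp (5 of 293; 0.556 to 3.94%) and 3.36% at 5000 bp and over (4 of 119; 0.923 to 8.38%). The narrowest class then still overlapped the interval over protein-coding genes, and the other 3 classes lay below theirs. No peaks were left out over protein-coding genes, so these lower positions follow in part from the choice and are description only. In the widest class 0.198% of bases remained covered.

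**Figure D1:**
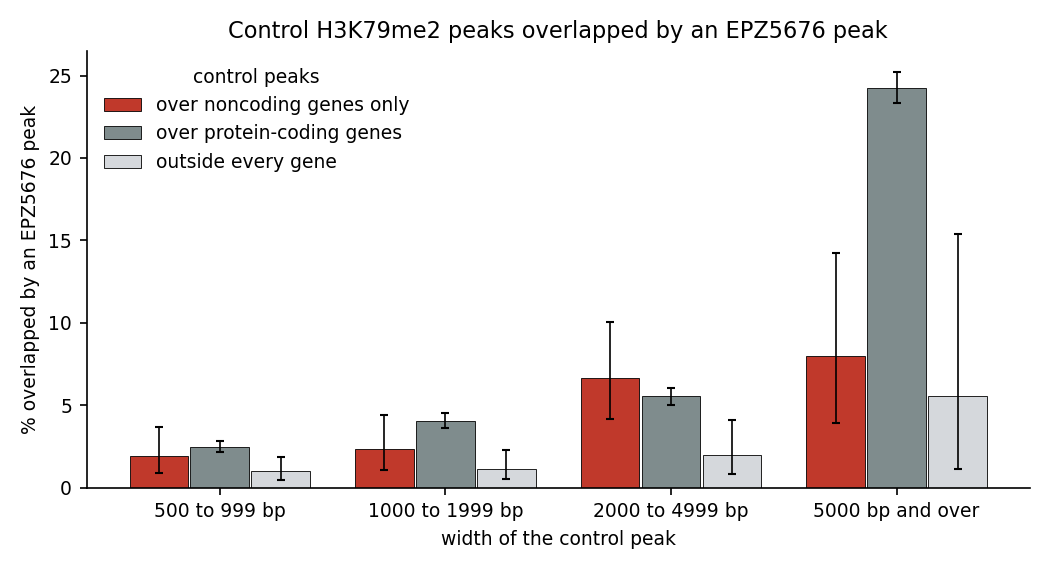
Share of control H3K79me2 peaks overlapped by an EPZ5676 peak (y axis, %) by width of the control peak (x axis). Red bars are peaks over noncoding genes only, grey bars peaks over protein-coding genes, light grey bars peaks outside every gene, and error bars exact 95% intervals. In the widest class the share was 8.00% over noncoding genes and 24.3% over protein-coding genes.

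The overlap was concentrated in Pvt1 and Morrbid. Of the 49 overlapped peaks, 18 lay over Pvt1 and 13 over Morrbid, together 63.3%, and these held 82.3% of all EPZ5676-covered bases in the set. Without the peaks over these genes, which were singled out after the values were seen, 18 of 1230 remained, or 1.46% (0.870 to 2.30%), with 0.306% of bases covered.

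Pvt1 is a lncRNA gene that lies next to Myc and is best known from rearrangements and amplifications in tumours. Its span of 222230 bp (chr15:62037986-62260215) had 42 EPZ5676 peaks over 33248 bp, and 49 control peaks over 116533 bp. Thus 14.96% of the span was covered after EPZ5676, against 52.4% in the control. The lowest −log10 p-value was 4.03 in the EPZ5676 list and 2.36 in the control list, so these shares rest on unlike floors. Of the 42 EPZ5676 peaks, 40 overlapped a control peak. They were 153 to 4518 bp wide with fold enrichments of 2.66 to 3.39 and a highest −log10 q of 3.13, whereas the control peaks were 195 to 11789 bp wide with folds of 2.03 to 2.89 and a highest −log10 q of 4.44. Folds of separate lists rest on separate backgrounds and were not compared. The peak with the most bases covered, chr15:62107249-62119037, had 5864 of 11789 bp under 3 EPZ5676 peaks (49.7%). Myc itself had no peak in either list.

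Morrbid is a lncRNA gene known in myeloid cells of mouse as a regulator of the nearby proapoptotic gene Bcl2l11. Its span of 130689 bp (chr2:128298663-128429351) had 16 EPZ5676 peaks over 15004 bp (11.5%), and 16 control peaks over 37866 bp (29.0%). These shares rest on the same unlike p-value floors as those of Pvt1. Of its 16 control peaks, all in the set, 13 were overlapped. The widest overlap was in chr2:128372209-128378151, where EPZ5676 peaks covered 4566 of 5943 bp (76.8%), and the peak chr2:128370939-128371651 was covered completely. Bcl2l11 had no EPZ5676 peak and 22631 bp of control coverage.

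Pvt1 and Morrbid ranked first and second of 26377 noncoding genes on these chromosomes by length covered with EPZ5676 peaks, and the next, Gm26849, had 4542 bp and overlapped a protein-coding gene. Pvt1 had 189 EPZ5676 peaks per Mb and Morrbid 122 per Mb, against 2.45 per Mb over the other noncoding genes outside coding spans. Most of those other genes carried no peak of the set, as 640 of 18104 noncoding genes outside coding spans were marked. Pvt1 and Morrbid were singled out for their EPZ5676 coverage, so the contrast is description only. Of 12 fibroblast markers, 2 had EPZ5676 peaks, over 3583 and 4191 bp, and the others had none. Markers of germ cells and of testis somatic cells had 0 bp under EPZ5676 peaks. No share over all protein-coding genes is given beside these marker counts, so they are description only. The part of the feeder cells in the EPZ5676 peaks of Pvt1 and Morrbid was not tested.

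**Figure D2:**
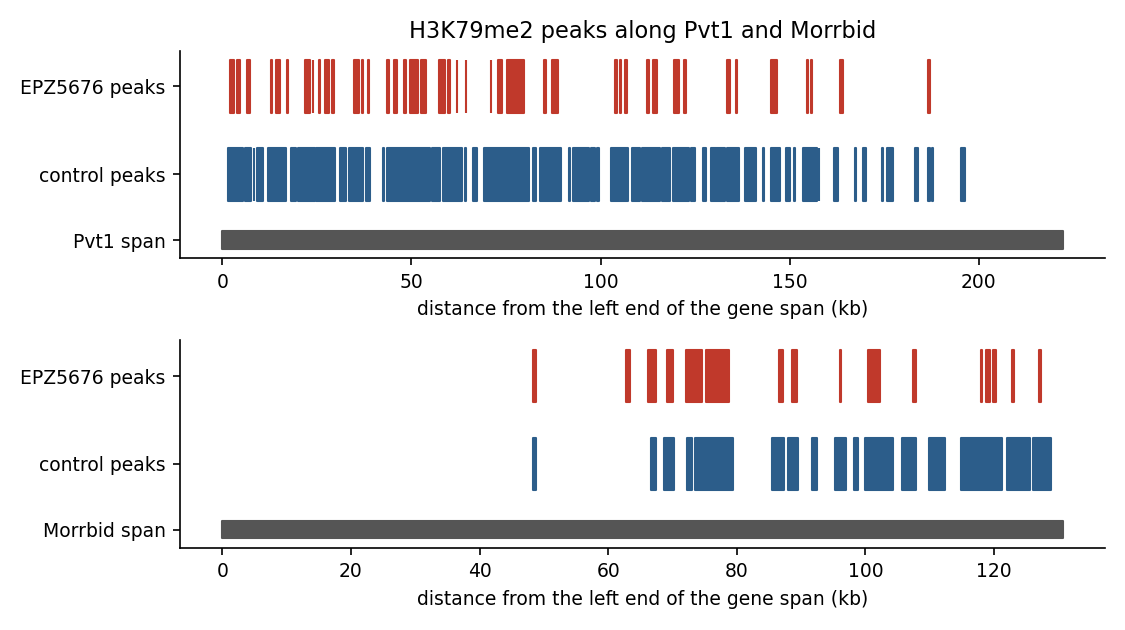
Peaks along Pvt1 (upper panel) and Morrbid (lower panel), with distance from the left end of the gene span in kb on the x axis. Red blocks are EPZ5676 peaks, blue blocks control peaks and grey bars the gene spans. EPZ5676 peaks numbered 42 in Pvt1, 40 of them over a control peak, and 16 in Morrbid.

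The other 18 overlapped peaks were scattered. The largest overlap after Pvt1 and Morrbid was at Gm19610, where the control peak chr5:91070000-91071596 (1597 bp) was covered completely. At Gm6634, 2 peaks had 1380 and 716 bp covered. The peak over Mir193a and Mir365-2 had 1257 of 16214 bp covered, and neither hairpin lay under an EPZ5676 peak. Mir100hg, the host of miR-100, had 8 EPZ5676 peaks over 2941 bp and 12 control peaks over 7764 bp, and 2 of its 8 peaks of the set were overlapped. Carmn, a lncRNA of smooth muscle and heart, had 174 bp under an EPZ5676 peak, against 3527 bp under control peaks. By gene, 34 of the 868 marked genes had an EPZ5676 peak anywhere in the span (3.92%), against a background of 2.31% over all noncoding genes. That background holds many short genes of other biotypes, whereas 694 of the 868 were lncRNA genes. Of all 12408 lncRNA genes 501 had an EPZ5676 peak, so the 3.92% is no excess over lncRNA genes.

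Among the 10 genes with the longest coverage by the set, all but Pvt1 and Morrbid had no EPZ5676 peak. The lncRNA gene 2610307P16Rik, next to Sox4 on chromosome 13 (chr13:28460034-28885422), had no EPZ5676 peak and 221201 bp under control peaks. Of these, 217551 bp lay in 26 peaks of the set, and the widest of them, chr13:28812244-28884993, ran 72750 bp. Sox4, a transcription factor gene, likewise had no EPZ5676 peak, against 4614 bp under control peaks. The lncRNA gene 2610035D17Rik (chr11:113043906-113201838) had no EPZ5676 peak and 130838 bp under control peaks, 82.8% of its span. The predicted gene LOC115487747 inside that span had no EPZ5676 peak and 52784 bp of control coverage.

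Lncpint, a p53-induced lncRNA gene (chr6:31093563-31218474), had no EPZ5676 peak, while 4 control peaks covered 98.0% of it. The widest of these ran 58286 bp with a fold enrichment of 4.38. Gm2164, Gm2694, Dleu2 and Gm12216 had no EPZ5676 peak either, and their control coverage was 47894 bp at Gm2164, 39660 bp at Gm2694, 35414 bp at Dleu2 and 30855 bp at Gm12216. Dleu2 is the host of miR-15a and miR-16, and its span overlaps a protein-coding gene. Of the 14 peaks wider than 20 kb, 0 were overlapped by an EPZ5676 peak, and of the 38 wider than 10 kb, 4 were. The share over all control peaks of these widths is not given here. In the nearest class, all control peaks of 5000 bp and over, it was 23.9%.

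**Figure D3:**
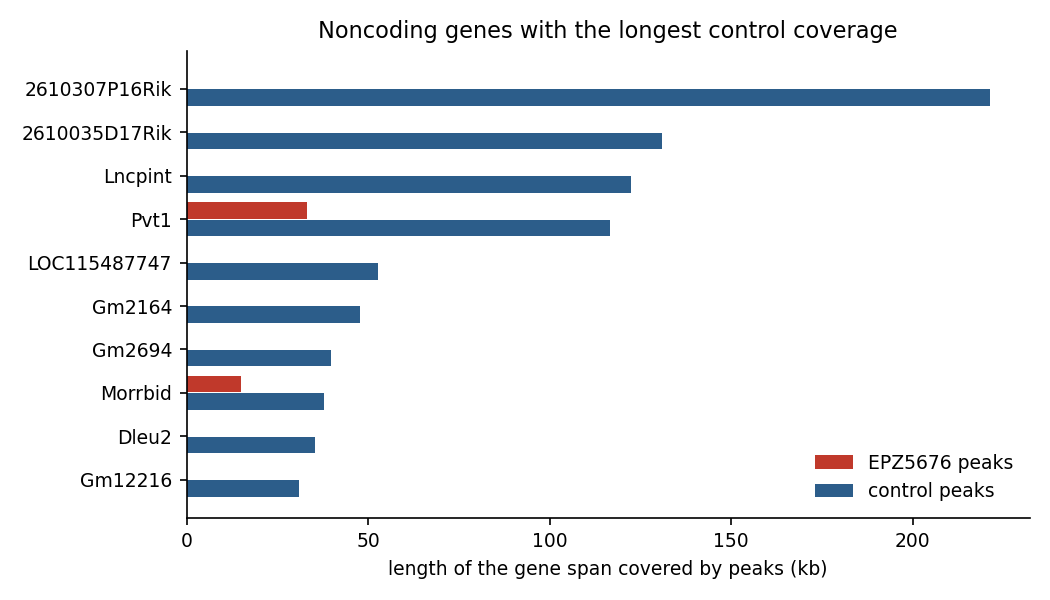
Length covered by peaks (x axis, kb) in the 10 noncoding genes with the longest coverage by the set. Red bars are EPZ5676 peaks and blue bars control peaks. Pvt1 (33248 bp) and Morrbid (15004 bp) alone among the 10 had EPZ5676 coverage.

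The starts of the 3 longest covered genes and of Morrbid are shown because the data bear on them: the widest peak of 2610307P16Rik ended shortly downstream of its start, and 1 peak of Lncpint ran over it. Sequences are RefSeq promoters (GRCm38.p6, minus strand, 250 bases before to 50 after the start). The capitals mark, on either strand, the letters GGGCGG as in a GC box, CCGGAAG as in an ETS site, CACGTG as in an E-box, TATAAA as in a TATA box, or CCAAT as in a CCAAT box, and no match overlaps another in these windows. The windows are chr13:28885373-28885672 for 2610307P16Rik, chr11:113201789-113202088 for 2610035D17Rik, chr6:31218425-31218724 for Lncpint and chr2:128429302-128429601 for Morrbid.
2610307P16Rik: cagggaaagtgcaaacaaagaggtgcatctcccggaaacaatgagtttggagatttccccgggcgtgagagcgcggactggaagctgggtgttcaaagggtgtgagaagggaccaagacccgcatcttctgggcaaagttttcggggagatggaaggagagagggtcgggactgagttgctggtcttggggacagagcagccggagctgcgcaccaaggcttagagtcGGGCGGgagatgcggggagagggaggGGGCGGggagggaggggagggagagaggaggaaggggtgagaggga
2610035D17Rik: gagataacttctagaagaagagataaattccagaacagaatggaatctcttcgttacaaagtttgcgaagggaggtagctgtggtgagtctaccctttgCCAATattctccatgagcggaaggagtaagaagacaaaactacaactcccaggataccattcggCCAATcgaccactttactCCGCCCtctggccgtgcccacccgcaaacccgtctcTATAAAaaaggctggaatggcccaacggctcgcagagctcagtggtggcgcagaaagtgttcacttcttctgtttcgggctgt
Lncpint: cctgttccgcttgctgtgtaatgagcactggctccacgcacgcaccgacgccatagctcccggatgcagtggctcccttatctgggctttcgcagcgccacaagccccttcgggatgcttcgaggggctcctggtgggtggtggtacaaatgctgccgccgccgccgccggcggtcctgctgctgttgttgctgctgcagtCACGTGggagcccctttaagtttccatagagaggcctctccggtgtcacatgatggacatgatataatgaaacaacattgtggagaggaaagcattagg
Morrbid: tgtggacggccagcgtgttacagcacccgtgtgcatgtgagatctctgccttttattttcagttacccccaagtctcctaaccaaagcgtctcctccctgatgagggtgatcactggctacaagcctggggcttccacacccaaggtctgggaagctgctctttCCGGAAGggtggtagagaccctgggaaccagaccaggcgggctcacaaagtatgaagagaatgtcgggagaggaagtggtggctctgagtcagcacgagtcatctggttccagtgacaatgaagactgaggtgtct

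Positions of the peaks were counted around gene starts. The genes were chosen for a peak of the set inside their span, which lies downstream of the start, so a higher share downstream than at the start or upstream is largely fixed by the choice and is description only. For 377 marked lncRNA genes that touched no coding span and had a start in the RefSeq table, a peak of the set lay over the start itself in 11.7%, over the position 250 bp downstream in 26.3%, and over the position 1250 bp downstream in 57.0%, the highest value. It was 24.4% at 5000 bp and 9.28% at 10000 bp. The choice of the set keeps its peaks from reaching into a coding gene upstream, so any control peak was counted too. The genes counted were still those chosen by a peak of the set. It covered the position 1250 bp upstream in 41.6%, the start in 13.5% and the position 1250 bp downstream in 58.9%. An EPZ5676 peak covered the start in 0%, and a position in at most 2.92%, taken over steps of 250 bp from 10 kb upstream to 30 kb downstream.

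**Figure D4:**
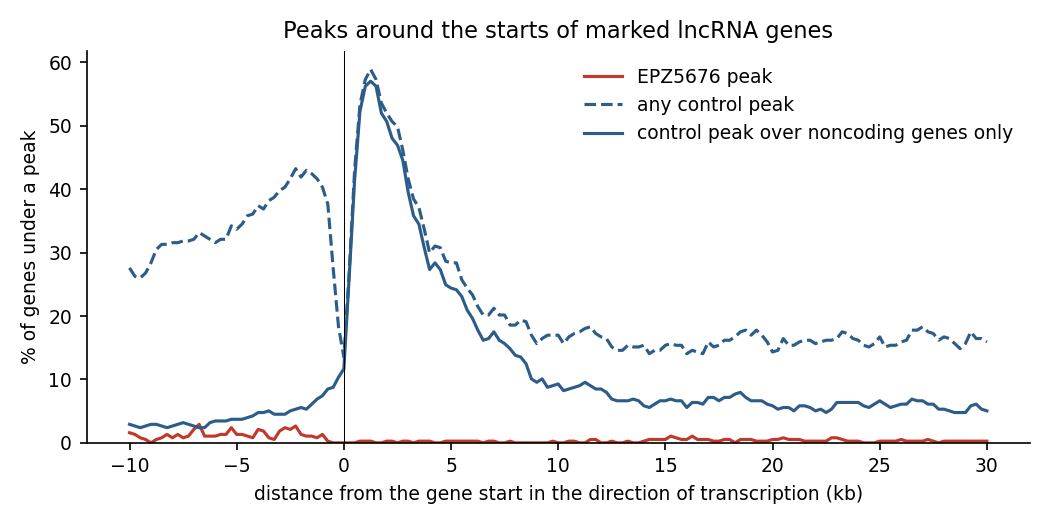
Share of 377 marked lncRNA genes under a peak (y axis, %) by distance from the gene start in the direction of transcription (x axis, kb). The red line is EPZ5676 peaks, the dashed blue line any control peak and the solid blue line control peaks over noncoding genes only. The solid line reaches 57.0% at 1250 bp downstream, and the EPZ5676 line stays at or under 2.92%.

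Many marked lncRNA genes shared their start region with a coding gene read in the other direction. Of the 377, 111 had a protein-coding start on the opposite strand within 1000 bp upstream (29.4%), against 291 of 5604 other lncRNA genes (5.19%). Around these 111 starts any control peak lay over the position 1250 bp upstream in 88.3% and over the position 1250 bp downstream in 77.5%, but over the start in 3.60%. At the 266 starts without such a neighbour the values were 22.2%, 51.1% and 17.7%. All 377 genes were chosen for a peak of the set, which cannot reach into a coding gene. A control peak running over a divergent start into the coding gene was therefore not in the set. The low value at the 111 divergent starts and the high value downstream are thus in part fixed by the choice and are description only. The promoter windows of the 377 genes had a median GC content of 55.3% and a median ratio of observed to expected CpG of 0.548, against 47.3% and 0.216 in the other lncRNA genes and 53.0% and 0.395 over all 25748 promoters. GGGCGG was present in 44.6% of the marked windows and 36.3% of all promoters, CCGGAAG in 13.0% and 9.30%, CACGTG in 11.4% and 7.23%, CCAAT in 43.0% and 37.9%, and TATAAA in 9.02% and 14.2%. In the other lncRNA genes the shares were 11.5% for GGGCGG, 3.02% for CCGGAAG, 5.50% for CACGTG, 37.1% for CCAAT and 17.4% for TATAAA. The pooled values of the marked genes joined 2 unlike groups. At the 111 divergent starts the median GC content was 68.7%, the CpG ratio 0.896 and the share with GGGCGG 82.9%. At the 266 others they were 52.0%, 0.350 and 28.6%, each below the value over all promoters. Each was above the value in the other lncRNA genes (47.3%, 0.216 and 11.5%). Such a match is a description of letters and not of a bound factor.

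The median distance to the nearest protein-coding gene was 9463 bp (quartiles 1359.5 and 42078 bp), and 267 peaks (20.8%) lay under 1000 bp from one. Whether a peak so close belongs to the domain of the coding gene cannot be told apart here. Of the 277 peaks farthest from coding genes, at 50 kb or more, 39 were overlapped by an EPZ5676 peak (14.1%), and without Pvt1 and Morrbid 9 of 225. Of the 267 peaks under 1000 bp, 2 were overlapped (0.749%).

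Among the 5 peaks of highest fold enrichment, 3 lay under 1000 bp from a coding gene. The peak over the let-7 cluster came first, with a fold of 8.87, a −log10 q of 51.7 and a width of 11459 bp, at 20887 bp from the nearest coding gene, Zfp169, and with no EPZ5676 peak. The 3 hairpins made up 2.50% of its length, and no other gene span lay under it. Let-7 microRNAs promote differentiation and are held back in germ and pluripotent cells by LIN28A. Gm40573 followed with a fold of 5.66 over 14479 bp, 644 bp from Yy1, a zinc finger factor gene with no EPZ5676 peak and 26737 bp of control coverage. Of the peak over Gm40573, 19.6% lay in the span of that gene. It had 407 bp under an EPZ5676 peak, all outside that span. Gm2164 had a fold of 5.46 at 420 bp from Pou3f1, Gm2694 had 5.16 at 757 bp from Cbln1, and the transcribed pseudogene 5830417I10Rik had 5.08 in a peak of 515 bp. The 35239 bp peak over B130006D01Rik ended 359 bp from Zfp652, which had no peak in either list, and 9.05% of that peak lay in a noncoding span. Zim2, annotated as a lncRNA gene in the table, had a peak of 25076 bp, of which 3.13% lay in its span.

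**Figure D5:**
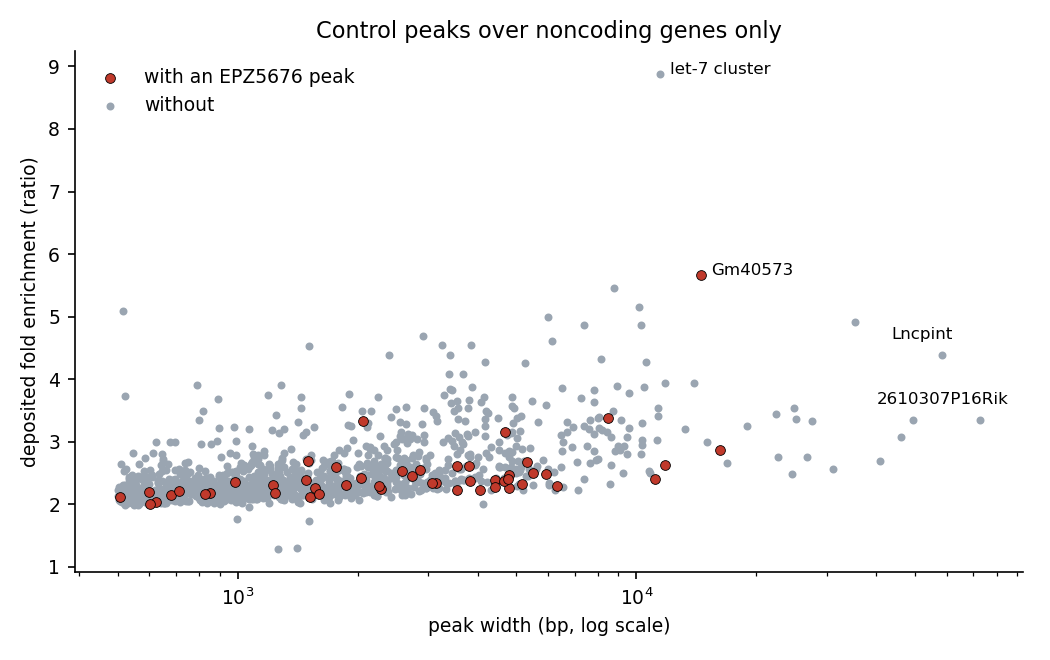
Width (x axis, bp, log scale) and deposited fold enrichment (y axis, ratio) of the 1283 control peaks over noncoding genes only. Red points overlap an EPZ5676 peak and grey points do not. The let-7 peak stands highest at 8.87, and the peaks over 20 kb, among them those of Lncpint and 2610307P16Rik, are grey.

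Of the microRNA peaks, 1 of 21 was overlapped by an EPZ5676 peak, a count near the 3.82% of the whole set. The miR-17 to miR-92a peak, over a cluster known to promote proliferation, was 2199 bp wide with a fold enrichment of 2.87, and covered all 6 hairpins but only 157 bp of the annotated host Mir17hg. The peak of miR-182, miR-96 and miR-183 was 8944 bp wide with a fold of 3.88, that of Mir101a 10239 bp with 4.86, and that of Mir1839 7250 bp with 3.70. Among 36 microRNAs of germ and pluripotent cells found in the table, 0 had an EPZ5676 peak and 12 had a control peak, 9 of them in the set. Over all 1136 microRNA genes 0.0880% had an EPZ5676 peak and 15.2% a control peak, so the count of 0 is near the background. The 9 are the miR-17 to miR-92a and miR-182 clusters. Mir290a, Mir291a and Mir10a had control peaks that touched a coding gene, and the miR-302 and miR-200 genes had none.

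All snoRNA host genes examined were marked in the control. Of 20 hosts, 20 had a control peak, against a background of 12.1% of noncoding genes with any control peak, and 15 were in the set, against 3.29% of noncoding genes. None had an EPZ5676 peak (0 of 20), but over all noncoding genes the share was 2.31%, so this count says nothing particular about the hosts. Folds were highest at Snhg10 and Snhg16 (4.54 each) and Snhg15 (4.52). Control peaks covered 3250 bp of Snhg16 (78.5% of its span), 4542 bp of Snhg17, 4375 bp of Snhg4 and 2639 bp of Snhg7, and 100% of the spans of Snhg20 and Snhg3. In the shorter or less covered hosts, control coverage was 1329 bp at Snhg18, 1164 bp at Zfas1, 1111 bp at Dancr, 1092 bp at Snhg12, 902 bp at Snhg11, 816 bp at Snhg5 and 807 bp at Snhg1. Gas5, Snhg6, Snhg8, Snhg9 and Epb41l4aos had a control peak outside the set. Of the 15 peaks over snoRNA genes themselves, 0 were overlapped by an EPZ5676 peak. Over the whole set the share was 3.82%, so this count says nothing particular about snoRNA genes.

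Of 10 microRNA hosts in the table, 2 had an EPZ5676 peak (Mir100hg and Mir99ahg) and 4 had a control peak, all of them in the set: Dleu2, Mir100hg, Mir17hg and Mir22hg. Over all noncoding genes, 2.31% had an EPZ5676 peak, 12.1% had a control peak and 3.29% were in the set, and these shares are the background for the lists that follow too. The listed snoRNA and microRNA hosts are all lncRNA genes, for which the background is higher. Of all 12408 lncRNA genes, 501 had an EPZ5676 peak, 2093 had a control peak and 694 were in the set. Mir22hg had no EPZ5676 peak and 3719 bp of control coverage, whereas Mir99ahg had 882 bp under EPZ5676 peaks and no control peak. Of 11 nuclear and structural RNAs, 0 had an EPZ5676 peak and 2 had a control peak, counts this small being near the 2.31% and 12.1% of all noncoding genes. The 2 were Malat1, a lncRNA of nuclear speckles (3775 bp of control coverage), and Neat1, the scaffold of paraspeckles (4761 bp). The other 9, most of which RNA polymerase III transcribes, had none.

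Of 28 lncRNA genes of described function in the table, 3 had an EPZ5676 peak (Pvt1, Morrbid and Carmn) and 15 had a control peak, 12 of them in the set, beside 2.31%, 12.1% and 3.29% of all noncoding genes. The other 9 of the 12 had no EPZ5676 peak. All 28 are lncRNA genes, for which the background is higher. Of all 12408 lncRNA genes, 501 had an EPZ5676 peak, 2093 had a control peak and 694 were in the set. Control peaks covered 7987 bp of Tug1 (88.4% of its span) and 6407 bp of Oip5os1, also called Cyrano (99.3%). Tunar, a lncRNA of pluripotent and neural cells, had 24588 bp of control coverage in 11 peaks. Control coverage was 7372 bp at Fendrr, 6218 bp at Crnde, 4107 bp at Trp53cor1, also called lincRNA-p21, and 875 bp at Halr1. Hotair, Hottip, Miat, Rmst, Pantr1 and Lncenc1 had no peak in either list.

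Of 10 imprinted noncoding genes in the table, 0 had an EPZ5676 peak, 6 had a control peak and 2 were in the set, Airn and Meg3, beside 2.31%, 12.1% and 3.29% of all noncoding genes. Of these genes, 8 touch a protein-coding span, and all but Gnasas1 are lncRNA genes, for which the background is higher. Airn, which silences Igf2r on the paternal allele, had 33380 bp of control coverage, of which 4910 bp lay in the set. Meg3 had 1144 bp of control coverage, of which 954 bp lay in the set. Kcnq1ot1 had 39742 bp of control coverage, none of it in the set. H19, Rian and Mirg had no peak in either list.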

How the data were processed

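H3K79me2 ChIP-seq and input libraries were made from 4 groups of 2 samples. Tools named in the submitters' processing notes are Trimmomatic, deepTools and bcl2fastq 2.20.0.422, and the build is mm10. The sources used here name neither the aligner nor the peak caller, nor say whether replicates were pooled or inputs used. The deposited score equals the −log10 q-value times 10 without its decimals, except in 4 control peaks. Each deposited peak also has the authors' fold, a ratio of signal to background, and a −log10 p-value. These values describe peaks within a list only. No column was left unmapped (0).

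Intervals were compared in Python 3.11.15 with pandas 2.3.3 and NumPy 2.4.6, with overlap of at least 1 bp, and the helpers were checked on simulated intervals. Shares have exact Clopper-Pearson 95% intervals (SciPy 1.17.1). Genes, starts and sequences came from RefSeq GRCm38.p6, the assembly that mm10 names. Of 868 marked genes, 543 had a promoter sequence. The peak set, gene lists and markers were chosen with earlier results of these data known. Named genes were the 10 widest peaks, the 10 longest covered genes, the 5 peaks of highest fold, the 10 peaks with most EPZ5676 coverage, list genes in the set, the 10 small RNA genes in the widest peaks, and peaks at the width limit.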

Additional observations from a re-analysis of the deposited data

How the results depend on the processing

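The number of peaks in the set depended on the thresholds. It was 822 at a minimum width of 1000 bp, 825 with a control −log10 q of at least 2, 552 with the control list held to the lowest −log10 p of the EPZ5676 list (4.03) and 776 with no protein-coding gene within 5000 bp, against 1283 as reported. The number of marked genes was 504 under the p-value floor and 465 under the 5000 bp distance, against 868. The share overlapped by an EPZ5676 peak was 5.80% under the 5000 bp distance, 1.01% where EPZ5676 peaks had to cover at least 50% of the peak, 2.34% with EPZ5676 peaks of −log10 q of at least 1.5, and 1.46% without Pvt1 and Morrbid, an alternative chosen after seeing the data, against 3.82%. Without Pvt1 and Morrbid 0.306% of bases were covered, against 1.65%.

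The median width was 2127 bp at a minimum of 1000 bp, 895 bp with no minimum, 1921 bp at −log10 q of at least 2, 2488.5 bp under the p-value floor and 1224 bp under the 5000 bp distance. The median fold was 2.45, 2.28, 2.51 and 2.68 under the first 4 of these. The median distance to a coding gene was 7410 bp at a minimum of 1000 bp, 5910 bp under the p-value floor and 34030.5 bp under the 5000 bp distance, which that setting fixes. Of 63 alternative values 40 stayed within the 95% interval of the reported value, or within 1.5 times it for counts and bases, among them all values with X and Y included, with lncRNA genes only, and with noncoding spans over at least 50% of the peak.

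No paired analysis was possible because each condition has 1 peak list, so leaving out a replicate was not run. The depth of the samples is unknown here, and a region without an EPZ5676 peak is one where none was called, not one shown to lack the mark.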

Other observations

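Pseudogenes and immune receptor loci made up a small part of the set. Of 79 peaks over pseudogenes without transcripts, 0 were overlapped by an EPZ5676 peak (exact interval up to 4.56%), and of 59 over transcribed pseudogenes, 2 were. The share over the whole set was 3.82%, below that upper limit. The longest covered transcribed pseudogene was Ppp4r1l-ps, with no EPZ5676 peak and 26216 bp of control coverage, of which 25539 bp lay in 8 peaks of the set. The 2 overlapped peaks lay over 6820431F20Rik (570 of 1504 bp) and 2610005L07Rik (217 of 2057 bp) on chromosome 8, and for both the nearest coding gene was Gm15319. Their control −log10 q of 14.1 and 15.8 stood beside folds of 2.68 and 3.33.

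The 3 lowest fold enrichments of the set, singled out after the values were seen, also lay over pseudogenes. Pisd-ps2 had a fold of 1.29 over 1259 bp, Pisd-ps1 had 1.30 over 1411 bp, and Gm7896 had 1.72 over 1513 bp. Reads from near-identical copies cannot be assigned with certainty, so values over pseudogenes are uncertain. In the immune receptor loci, 1 peak of 3760 bp reached 261 bp into Ighm and 1 peak of 1451 bp reached 1337 bp into Trac. Neither was overlapped by an EPZ5676 peak. Elsewhere in the loci, Igh had 6 EPZ5676 peaks over 3086 bp in a span of 2751187 bp. Tcra had 4 over 1638 bp in a span of 1796232 bp. Noncoding genes outside coding spans, without Pvt1 and Morrbid, had 2.45 EPZ5676 peaks per Mb, so these counts are description only.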
